A study of Mus musculus with 12 samples.

Results

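Resp18 and 9 genes of the dense-core vesicle were followed through 12 hippocampal RNA-seq libraries of 3-month-old mice, 3 from each combination of sex (female or male) and genotype (control or Atrx-cKO). cKO stands for conditional knockout of Atrx, an X-linked gene for a chromatin remodeller. By its title, the series deleted Atrx in neurons, so the RNA of a library also holds transcripts of cells that kept the gene. Of the Cre line, the deleted exons, the strain and the alleles of the controls, nothing was stated in the labels. The text on the series' design speaks of 3 pairs of animals per sex, but no label ties a library to 1 mouse or to a pair, so p-values measure the spread between libraries. The 10 members were found by gene symbol among 54532 genes: Resp18, the prohormone convertases Pcsk1 and Pcsk2, their partners Pcsk1n and Scg5, the granins Chga, Chgb, Scg2 and Scg3, and the carboxypeptidase Cpe. Resp18 was chosen by its lower FPKM in these cKO libraries, so its cKO values are given as a description with no test. The others were chosen for their place in the same vesicle.

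Dense-core vesicles carry neuropeptides and trophic factors. They bud from the trans-Golgi network, where granins condense with prohormones, and convertases then cut the prohormones at pairs of basic residues as the vesicle matures. Carboxypeptidase E trims the exposed basic residues, and calcium releases the finished peptides, mostly away from the active zone. In the hippocampus, granule cells, pyramidal cells and interneurons all hold such vesicles. Resp18 is a small endocrine-specific protein of the secretory pathway, best known from the pituitary and hypothalamus, and it shares sequence with the lumenal part of the vesicle protein IA-2 (Ptprn).

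The upstream sequences of the members are shown first, to set the granin genes beside Resp18. They are from RefSeq, on GRCm38.p6, and 9 of the 10 members had an entry, all but Cpe. Each entry runs from 250 bases before to 50 after the RefSeq start. The cAMP response element TGACGTCA, the site of CREB-family factors, was found in 3 of the 9, Pcsk1, Chgb and Scg2, against 1.79% of all 32851 entries, which have the same length. Its shorter form TGACGT lies inside the full element and was searched on both strands. It was found in 5 of the 9, the same 3 and Chga and Scg5, against 7.51% of all entries. Both forms contain CG, and the shares were not matched for CG content. The entries of Pcsk1, Chgb, Scg2, Chga and Scg5 held 13, 31, 16, 21 and 9 CG pairs, beside a median of 7 over all entries. Resp18 held neither form in this window. Pcsk2, Pcsk1n and Scg3 also held neither. Resp18 held the CCAAT box, searched as CCAAT or ATTGG, as did Pcsk2 and Scg3 and 37.4% of all entries. The runs below are 5′ to 3′ on the strand of the gene, with the element in capitals.
Pcsk1: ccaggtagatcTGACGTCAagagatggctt
Chgb: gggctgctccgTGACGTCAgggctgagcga
Scg2: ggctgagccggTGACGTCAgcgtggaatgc
Chga: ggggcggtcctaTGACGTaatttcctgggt
Resp18: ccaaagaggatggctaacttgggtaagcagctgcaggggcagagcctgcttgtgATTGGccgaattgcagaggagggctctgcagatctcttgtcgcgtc
The element began 78 bases before the RefSeq start in Pcsk1 (chr13:75089768-75089797, plus strand), 72 in Chgb (chr2:132781559-132781588, plus strand) and 68 in Scg2 (chr1:79440076-79440105, minus strand). The shorter form began 44 bases before it in Chga (chr12:102554885-102554914, plus strand), and the box of Resp18 46 bases before it (chr1:75278416-75278515, minus strand). The deposited tables place the first base of the gene 364 bases farther upstream for Chgb and 94 for Scg2, so these runs lie within the annotated gene there, while the 2 starts of Resp18 are the same base. These matches describe the letters only. Among the members called between the control sexes further on, Chgb holds the full element, Chga the shorter form and Pcsk2 neither. Pcsk1 and Scg2, which hold the full element, and Scg5, which holds the shorter form, were not called. The part of the element in the levels was not tested.

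All 10 members passed the filter on low values, a mean of at least 1 FPKM and a value of at least 1 in at least 3 libraries, which left 15969 genes. FPKM counts fragments per length of transcript and per size of library. Here it is given after subtraction of each library's background, the median FPKM of 1459 olfactory and vomeronasal receptor genes, and after scaling between libraries. Depth ran from 1.16 to 8.64 Gb of mapped sequence. The background ran from 0.0102 to 3.02 FPKM, with the highest values in cKO females 2 and 3, and it was higher in every control female (0.142 to 0.868) than in every control male (0.0102 to 0.0497). Each cKO library had less Atrx than any control of the same sex: 28.3, 42.2 and 46.1 FPKM against 49.9, 53.0 and 60.9 among females, and 31.8, 30.4 and 36.8 against 42.8, 40.6 and 41.3 among males.

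The level of the members differed widely. Cpe, the carboxypeptidase, had a mean of 685 FPKM over the 12 libraries, rank 78 of the genes tested, and Chgb, a granin that condenses cargo, had 282 FPKM. Scg3, the granin that binds cholesterol and granule membranes, and Scg5, the 7B2 chaperone of the convertase PC2, had 108 and 107 FPKM, and their ranges overlapped (75.9 to 145 and 81.3 to 139). Scg2, the precursor of secretoneurin, had 75.2 FPKM. Chga, the granin chromogranin A, and Pcsk2, the convertase PC2, followed with 33.2 and 28.1 FPKM and overlapping ranges (22.3 to 44.7 and 21.1 to 36.2). Resp18 had 16.3 FPKM, Pcsk1n, the proSAAS inhibitor of the convertase PC1, had 11.1, and Pcsk1, which encodes PC1, had 7.62. The ranges of these last 3 overlapped.

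**Figure D1:**
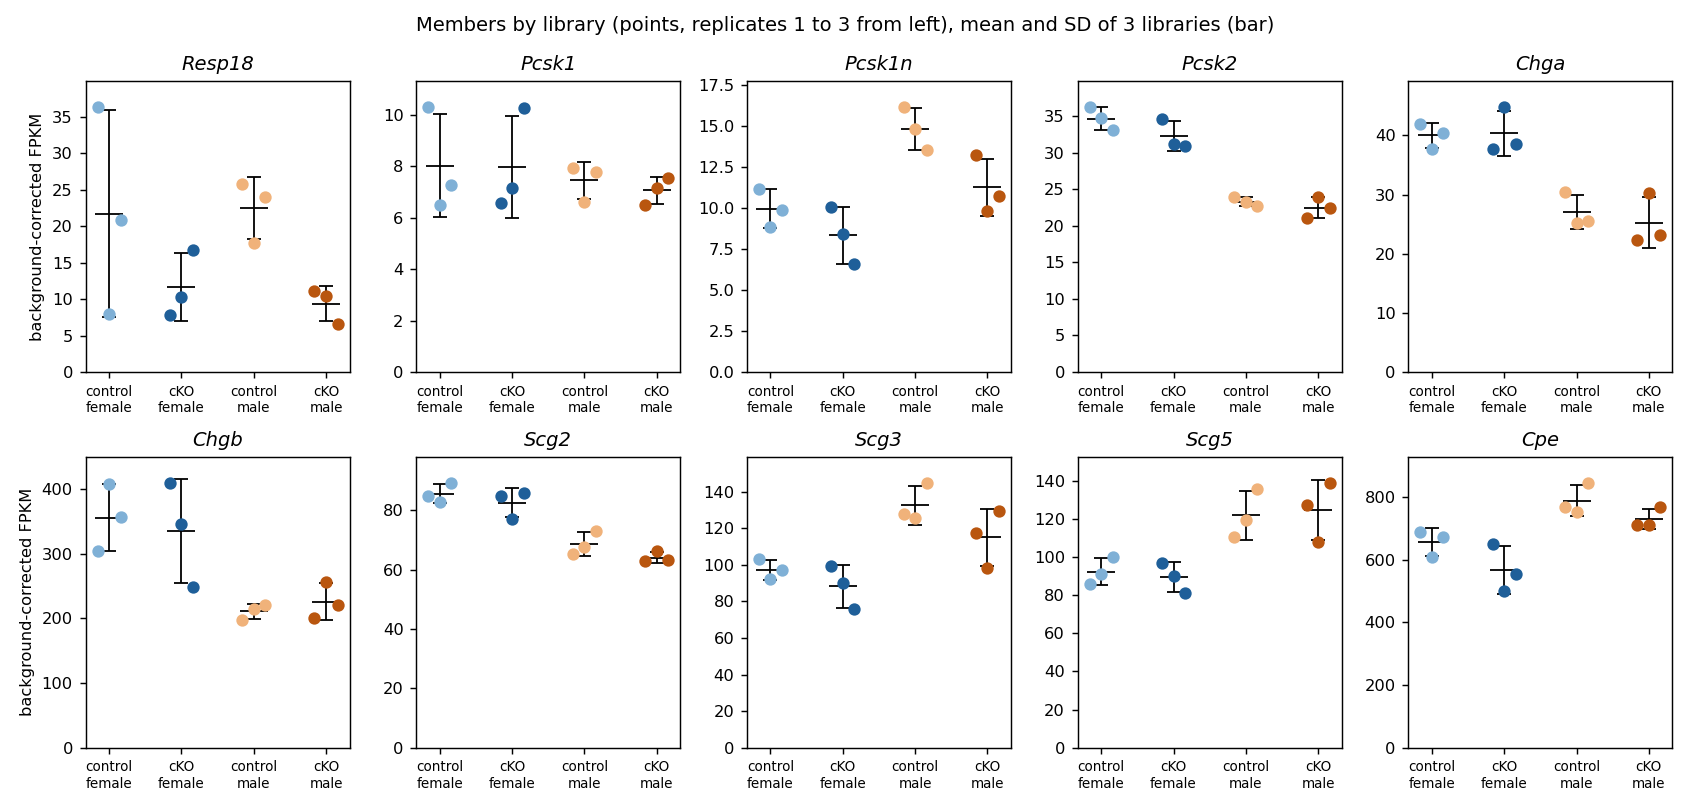
Background-corrected FPKM of the 10 members (vertical axes, each starting at 0) in the 4 groups. Points are libraries, and bars are the mean and SD of 3 libraries. Resp18 runs from 7.94 to 36.3 in control females and lies lower in cKO males than in control males, while Pcsk2, Chga, Chgb and Scg2 sit lower in control males than in control females.

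Resp18 (ENSMUSG00000033061, chr1:75272199-75278415, minus strand) was lower in cKO than in control males and overlapped between the genotypes in females. Control males 1 to 3 had 25.7, 17.7 and 24.0 FPKM and cKO males 11.1, 10.4 and 6.63. Every cKO male was below every control male, as for 5.34% of all genes tested. The means were 22.5 ± 4.23 and 9.38 ± 2.40 FPKM (SD, n = 3 each), a difference of −1.23 in log2(FPKM + 0.5), a scale that understates the change of low genes. Control females had 36.3, 7.94 and 20.9 FPKM and cKO females 7.84, 10.4 and 16.8. Control female 2 was as low as the cKO libraries, so these groups overlapped, as they did on this scale for all 10 members. Of all genes, 18.6% did not overlap in females. The means were 21.7 ± 14.2 and 11.7 ± 4.61 FPKM, a log2 difference of −0.70. In these bulk samples, fewer cells that express a gene and less RNA per cell cannot be told apart.

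The value in females rests on few libraries. It was −1.28 without control female 2, −0.21 without control female 1, −0.46 without cKO female 1 and −1.17 without cKO females 2 and 3, and it was −1.46 with no background subtraction, where the median of all genes was 0.33. In males it lay between −1.39 and −1.02 over the fits that each left out 1 library. The highest control female had 4.57 times the level of the lowest for Resp18, a ratio exceeded by 1.18% of 8967 genes with a mean of at least 5 FPKM, whose median was 1.20. Among the other 9 members this ratio ran from 1.08 for Scg2 to 1.58 for Pcsk1. Among the control females, Resp18 thus varied more than any other member.

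Nearly all of the Resp18 signal came from 1 transcript. ENSMUST00000039534, with 6 exons and 748 bases, held 86.2% to 99.2% of the FPKM of the gene. As deposited, this transcript went from 23.0 ± 15.4 FPKM in controls to 10.7 ± 3.47 in cKO among females, and from 22.8 ± 4.95 to 9.47 ± 2.83 among males (SD, n = 3 each). The other 3 annotated transcripts had means of at most 0.48 FPKM over the 12 libraries. The difference between the genotypes is thus that of the full transcript.

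The hippocampal dissection was checked with hormones of nearby tissue, since Resp18 is abundant in the hypothalamus and pituitary. None of 13 hypothalamic genes passed the filter, 9 were below 1 FPKM in every library, and their sum ran from 1.60 to 2.24 FPKM (controls) and 1.99 to 5.56 FPKM (cKO) among females, and from 2.38 to 2.63 and 1.64 to 2.48 FPKM among males. The genotypes thus overlapped in this sum in both sexes. Gh, growth hormone, was at 0 in all 12 libraries after subtraction, and Avp and Oxt, the vasopressin and oxytocin precursors, reached at most 0.188 and 0.0431 FPKM. cKO females 2 and 3 stood apart in other markers. Prl, the prolactin precursor, had 4.95 and 4.79 FPKM there, against 0.173 to 0.594 in the control females and 0 in cKO female 1. Their sums were 17.1 and 18.3 FPKM for the 10 pituitary and adrenal genes and 74.1 and 70.9 FPKM for the 8 genes of thalamus and habenula, while the other libraries had 2.23 to 6.12 and 36.8 to 43.1 FPKM. These are also the libraries of highest background, and the part of such tissue in their Resp18 values, 10.4 and 16.8 FPKM, was not tested. Ttr, which marks the choroid plexus, ran from 8.0 to 5154 FPKM. It was high in control female 2, the lowest control for Resp18, in the control males and in cKO male 1. Its part in the Resp18 values was not tested. Of 7 genes of the striatum, 4 were tested, with a median log2 difference of −0.48 in females and −0.50 in males. All genes had −0.01 and 0.02. None of the 4 passed in either sex or for the mean. The sum of the 7 was 13.1 to 19.7 FPKM in control males and 9.73 to 13.6 in cKO males, which overlapped. In females the cKO sums lay within the control range of 5.96 to 17.3 FPKM. The part of striatal tissue in the Resp18 values was not tested.

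The genes beside Resp18 on chromosome 1 were read in the same way. Of 10 genes with a mean of at least 1 FPKM within 100000 bases, 0 passed the test (limma, Benjamini-Hochberg adjusted p under 0.05) in either sex or for the mean of both sexes. Of all genes, 0% passed in females, 0% in males and 0.00626% for the mean. The nearest, Ptprn, lies 7696 bases from Resp18 and encodes IA-2, a transmembrane protein of the vesicle. Among females, Ptprn had 43.5, 31.8 and 32.9 FPKM (controls) and 30.4, 34.6 and 35.1 FPKM (cKO), and among males 26.1, 19.9 and 19.6 FPKM (controls) and 22.2, 25.5 and 14.3 FPKM (cKO). The genotypes overlapped in both sexes, with log2 differences of −0.10 in females (limma adjusted p = 0.739) and −0.10 in males (adjusted p = 1). Atg9a, an autophagy protein, did not overlap in males, with 4.70, 4.54 and 4.73 FPKM (controls) and 4.19, 3.71 and 3.11 FPKM (cKO), a log2 difference of −0.31 (limma adjusted p = 1), and it overlapped in females. Tuba4a, an alpha-tubulin, did not overlap in females, where it had 24.7, 26.4 and 29.9 FPKM (controls) and 41.3, 40.2 and 30.2 FPKM (cKO), a difference of 0.45 (limma adjusted p = 0.137), and it overlapped in males. The other 8 overlapped in both sexes. Of all genes, 5.34% were lower in cKO males with no overlap, and 18.6% did not overlap in females in either direction. On the other side, Dnpep, an aminopeptidase, had log2 differences of 0.09 and 0.04 in females and males (limma adjusted p = 0.768 and 1).

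The other 9 members showed no change that passed the test in cKO. The count was 0 of 9 in females, in males, for the mean of both sexes and for the difference between the sexes, where 0%, 0%, 0.00626% and 0% of all genes passed; the 1 gene behind the third share was Mtfp1, named after its values were seen. The shares over all genes rest on cKO female 1: without it 7905 genes passed in females, 6314 for the mean, 4368 for the difference and 0 in males, while 0 of 9 members passed in females. Without adjustment, 0, 1, 1 and 0 members had a p under 0.05, as did 5389, 327, 3550 and 1179 genes. The median log2 difference of the 9 was −0.10 in both sexes, beside −0.01 and 0.02 for all genes.

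**Figure D2:**
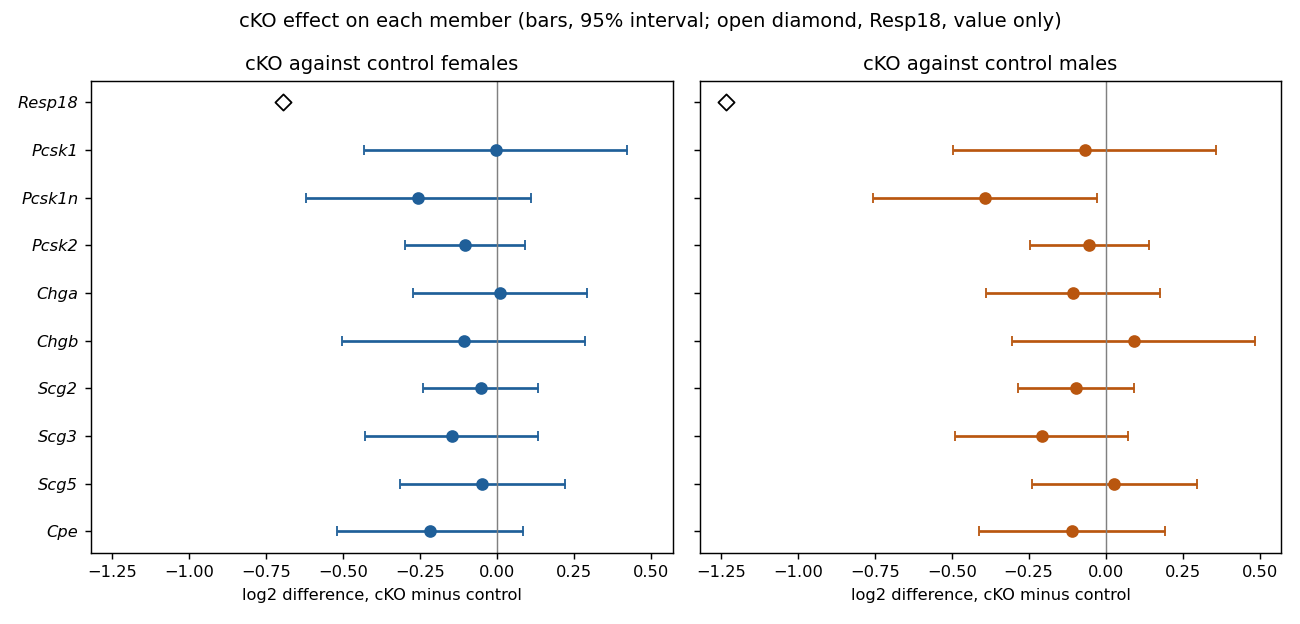
Log2 difference of each member, cKO minus control, in females (left) and males (right). Circles with bars are the 9 tested members with 95% intervals of the limma fit over 12 libraries, and the open diamond is Resp18, shown as a value only. Of the 18 intervals, that of Pcsk1n in males alone lies wholly below 0 before adjustment.

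Among the convertases and their inhibitors, Pcsk1n came closest. Control males had 16.1, 14.8 and 13.6 FPKM of Pcsk1n and cKO males 13.2, 9.85 and 10.7. Every cKO male was below every control male on this scale, as for 5.34% of all genes, but as deposited the groups overlapped. The log2 difference was −0.39 (95% interval −0.76 to −0.03, unadjusted p = 0.0375 and adjusted p = 1, limma). Among females, Pcsk1n had 11.2, 8.85 and 9.86 FPKM (controls) and 10.04, 8.44 and 6.56 FPKM (cKO), a log2 difference of −0.26 (−0.62 to 0.11). The groups overlapped there. For the mean of both sexes the value was −0.32 (limma adjusted p = 0.207), and it passed the test only without cKO female 1 among the fits run (−0.39, adjusted p = 0.0160), where 6314 genes passed in all.

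For the convertases themselves, all 4 intervals held 0. Pcsk2 had log2 differences of −0.10 in females (95% interval −0.30 to 0.09) and −0.05 in males (−0.25 to 0.14). Pcsk1 had 0.00 (−0.43 to 0.42) and −0.07 (−0.50 to 0.36), with the widest interval of the 9, at 6.50 to 10.3 FPKM. For Scg5, the chaperone of PC2, the values were −0.05 (−0.32 to 0.22) and 0.03 (−0.24 to 0.30). A fall of the size of the Pcsk1n value in males, −0.39, lies within both intervals of Pcsk1 and outside those of Pcsk2 and Scg5.

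The intervals of the granins and Cpe held 0 as well. Among females, Chgb had 304, 407 and 357 FPKM (controls) and 409, 346 and 249 FPKM (cKO), and among males 198, 215 and 220 FPKM (controls) and 201, 257 and 221 FPKM (cKO). The genotypes overlapped in both sexes, with log2 differences of −0.11 (−0.50 to 0.29) and 0.09 (−0.30 to 0.48). Chga had 0.01 (−0.27 to 0.29) and −0.11 (−0.39 to 0.18), and Scg2 −0.05 (−0.24 to 0.13) and −0.10 (−0.29 to 0.09). As deposited, Chga did not overlap in females, with 46.8, 41.8 and 42.4 FPKM (controls) and 41.1, 38.0 and 32.5 FPKM (cKO). The share of all genes was not taken on that scale. Scg3 had −0.15 (−0.43 to 0.13) and −0.21 (−0.49 to 0.07). For Cpe the values were −0.22 (−0.52 to 0.09) and −0.11 (−0.41 to 0.19), and it passed in females on deposited FPKM alone among the settings run (−0.53, limma adjusted p = 0.0493), a setting in which the median of all genes was 0.88.

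Within a library, the ratio of Resp18 to the geometric mean of the other 9 removes what the members share. It was 0.417, 0.298 and 0.379 in control males and 0.198, 0.182 and 0.113 in cKO males. In control females it was 0.541, 0.129 and 0.323, and in cKO females 0.122, 0.175 and 0.297. The male groups did not overlap and the female groups did, as for Resp18 alone. Since Resp18 was chosen for its fall in these same libraries, this ratio is a description and no support.

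Other genes of the pathway were read from 4 lists, and none of their members passed the test in cKO in either sex or for the mean. Of all genes, 0% passed in females, 0% in males and 0.00626% for the mean. Of 14 tested convertases and trimming enzymes, the smallest p-values for the mean belonged to Rnpep, an aminopeptidase (log2 0.45), Mme, the peptide-degrading neprilysin (0.52), and Furin, the constitutive-pathway convertase (−0.56), with limma adjusted p = 0.207, 0.210 and 0.239. Of 11 cargo regulators and further granins these were Atp6v0a1, a subunit of the vesicle proton pump (−0.25), Gnas, the stimulatory G protein locus (−0.26), and Atp6ap2, a pump accessory protein (−0.21). Of 35 genes of biogenesis and release they were Vamp2, the vesicle SNARE (−0.43), Rab3a, a vesicle GTPase (−0.24), and Syt10, a calcium sensor (0.36). Of 14 neuropeptide precursors, Penk, the enkephalin precursor, had 13.3 ± 1.78 FPKM (controls) and 7.85 ± 4.24 FPKM (cKO) among females and 11.7 ± 1.57 and 7.995 ± 3.51 FPKM among males (SD, n = 3 each; limma adjusted p = 0.207 for the mean). Grp and Cck, which encode gastrin-releasing peptide and cholecystokinin, had values of −0.59 and −0.24. The median log2 value for the mean of both sexes was −0.01, −0.16, −0.02 and −0.11 in the 4 lists in this order, beside 0.00 for all genes.

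Between control males and control females, 3 members were lower in males: Pcsk2, Chga and Chgb, which encode the convertase PC2 and the granins chromogranin A and B. No member passed in the other direction. Of all genes 6.16% passed, 1.92% lower and 4.24% higher. This difference cannot be told apart from that of background, which was higher in every control female, and it depended on the scale: with no subtraction, a setting that also changes the genes used for scaling and the filter, 0 members passed, and the log2 values of Pcsk2 and Chga were 0.00 and 0.01, where the median of all genes was −0.32. On deposited FPKM, neither subtracted nor scaled, the values were −0.64, −0.64 and −0.81 for Pcsk2, Chga and Chgb and 0 members passed (limma adjusted p = 0.0564, 0.0724 and 0.0933), where the median of all genes was −0.58.

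Pcsk2 had 36.2, 34.7 and 33.0 FPKM in control females and 24.0, 23.2 and 22.7 in control males. Every male was below every female, by a log2 difference of −0.56 (SE 0.09, limma adjusted p = 0.00715). Chga had 41.9, 37.7 and 40.3 FPKM in control females and 30.4, 25.2 and 25.6 in control males. The difference was −0.56 (SE 0.13, adjusted p = 0.0286, limma). For Chgb, with the values given above, it was −0.74 (SE 0.18, limma adjusted p = 0.0349). Of the 12 fits that each left out 1 library, Pcsk2 passed in 12, Chga in 7 and Chgb in 5. Leaving out any 1 control female raised the adjusted p of Chga and Chgb above 0.05 (limma adjusted p = 0.0622 to 0.114), and so did leaving out control male 2 or 3. The adjusted p of Chgb was also above 0.05 without control male 1 or cKO male 1.

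The other members split by direction. Scg2 had 84.9, 82.9 and 89.2 FPKM in control females and 65.2, 67.7 and 73.1 in control males, a log2 difference of −0.32 (limma adjusted p = 0.0507). Scg3 had 103, 92.0 and 97.0 FPKM in control females and 128, 125 and 145 in control males, a difference of 0.44 (limma adjusted p = 0.0664). Pcsk1n had 0.56, Scg5 0.40 and Cpe 0.26 (limma adjusted p = 0.0736, 0.0820 and 0.295). None of these 5 passed. The control groups did not overlap for 8 of the 10 members, 4 lower and 4 higher in males, beside 44.7% of all genes (23.8% lower and 20.9% higher). As deposited, the groups also overlapped for Cpe. Resp18 and Pcsk1 overlapped, with log2 values of 0.27 and −0.08 (limma adjusted p = 0.775 and 0.852).

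**Figure D3:**
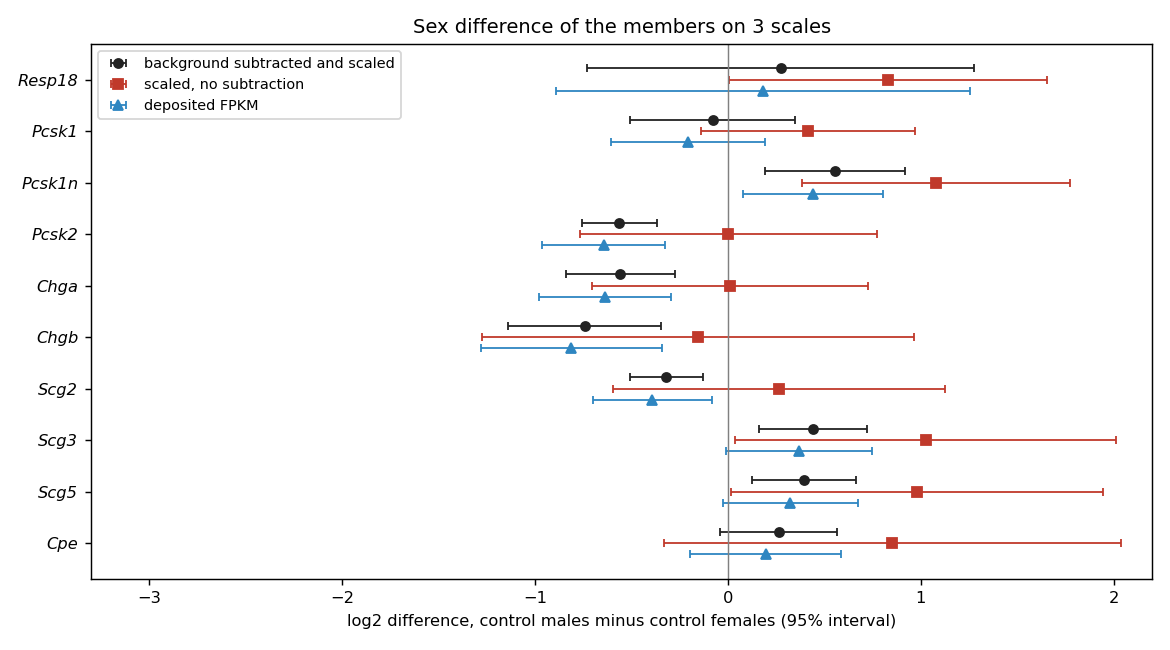
Log2 difference of each member between control males and control females, with 95% intervals, on 3 scales: after background subtraction and scaling (circles), scaled with no subtraction (squares) and deposited FPKM (triangles). Pcsk2, Chga, Chgb and Scg2 lie below 0 and Pcsk1n, Scg3, Scg5 and Cpe above it on the first and last scale, and with no subtraction every member moves to the right.

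The cKO libraries were read for the same split after the controls had been seen. Pcsk2, Chga, Chgb and Scg2 were lower in cKO males (limma adjusted p = 0.00458, 0.00586, 0.0331 and 0.0107). Scg3 and Scg5 were higher (limma adjusted p = 0.0357 and 0.0143), and Pcsk1, Pcsk1n and Cpe did not pass. Of all genes, 3181 passed as higher and 3408 as lower. The background was also higher in every cKO female (0.480 to 3.02 FPKM) than in every cKO male (0.0341 to 0.450). Its part was not tested. Every cKO male was below every cKO female for 3 members (Pcsk2, Chga and Scg2) and above for 2 (Scg5 and Cpe), beside 20.9% and 20.3% of all genes. For Pcsk2 these values were 21.1, 23.9 and 22.4 FPKM in cKO males and 34.6, 31.1 and 30.9 in cKO females. The other 5 overlapped, and as deposited Scg2 overlapped too. Where Chgb overlapped, cKO male 2 had 257 FPKM, above the 249 of cKO female 3.

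A ratio within each library does not depend on the scaling between libraries. The geometric mean of Pcsk2, Chga, Chgb and Scg2 over that of Pcsk1n, Scg3, Scg5 and Cpe, sets chosen after their values were seen, was 0.870, 0.994 and 0.902 in control females and 0.922, 1.02 and 1.03 in cKO females. It was 0.482, 0.475 and 0.452 in control males and 0.454, 0.638 and 0.470 in cKO males. All 6 males were below all 6 females. The sets are the members lower and higher in control males, so the separation of the controls followed from this choice. The ratio is a description only. The male nearest to the females was cKO male 2, whose background of 0.450 FPKM was the highest among males and lay within the range of the females. Among females the ratio ran from 0.870 to 1.03 and the background from 0.142 to 3.02 FPKM. The part of the background in this ratio was not tested.

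**Figure D4:**
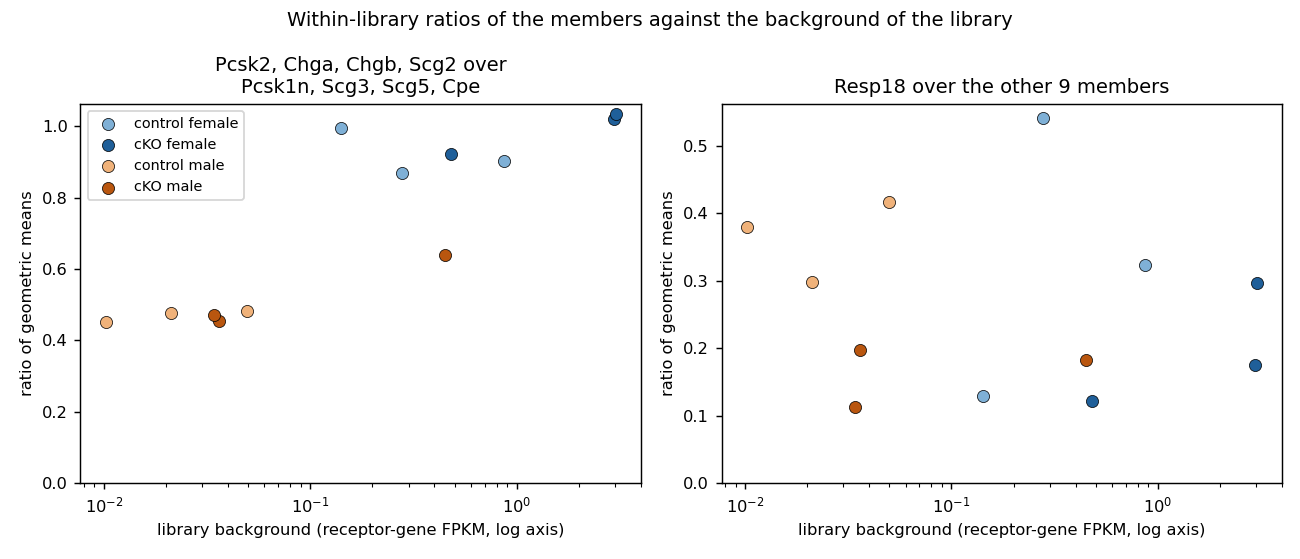
Ratios of geometric means within each library (vertical axes, from 0) against the background of the library in receptor-gene FPKM (horizontal log axes). On the left, the ratio of Pcsk2, Chga, Chgb and Scg2 to Pcsk1n, Scg3, Scg5 and Cpe lies between 0.452 and 0.638 in males and between 0.870 and 1.03 in females, and on the right the ratio of Resp18 to the other 9 overlaps between the sexes. The sets of the left ratio were chosen after their values were seen.

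Pathway genes and cell type markers also differed between the control sexes. Cpd, a carboxypeptidase of the trans-Golgi network (−0.46, limma adjusted p = 0.0452), Ptprn2, the IA-2 relative phogrin (−0.63), Atp6v0a1 (−0.53), Cadps, which primes dense-core vesicles (−0.34), the release factor Unc13a (−0.65) and the sorting receptor Sort1 (−0.65) were lower in males. These were 1 of 14, 2 of 11 and 3 of 35 tested genes of their lists, and 0 of 14 neuropeptide precursors passed; no list had a call in the other direction. Over all genes 1.92% were called lower in males and 4.24% higher. Astrocyte markers were called higher in males for 4 of 8 (Gfap, Aqp4, Aldoc and S100b), with a summed level of 644 to 677 FPKM in control females and 967 to 1109 in control males. Microglia markers were higher for 3 of 8, with sums of 79.1 to 84.8 and 114 to 129 FPKM, and oligodendrocyte markers for 2 of 8, with sums of 615 to 856 and 1298 to 1631. Excitatory neuron markers were lower for 1 of 11, with sums of 460 to 508 and 383 to 421 FPKM, and interneuron markers for 2 of 9 tested, with sums of 187 to 213 and 138 to 166. The part of these cell types in the sex difference of Pcsk2, Chga and Chgb was not tested.

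The genes whose levels ran most like Resp18 were taken from 8966 genes by Pearson's r over the 12 libraries, which share depth, background and group. They were Kif1a, a motor that carries dense-core vesicles (0.83), Necab1, a neuronal calcium-binding protein (0.83), Lifr, a cytokine receptor (0.82), Timp2, a metalloproteinase inhibitor (0.80), Syt17, a synaptotagmin relative (0.80), and Pacsin1, an endocytic adaptor (0.79). The lowest values were those of Matn2, Psmc4 and Brd9 (−0.82, −0.82 and −0.81). These are the extremes of 8966 values, each over 12 libraries only, and no r was tested against what unrelated genes would reach. Kif1a varied far less than Resp18, from 60.6 to 79.8 FPKM. Among the members, Pcsk1 had the highest r (0.61, rank 73), and Chgb had the lowest (−0.28). No gene of these 9 passed the test in cKO in either sex or for the mean, where 0%, 0% and 0.00626% of all genes passed in females, in males and for the mean.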

How the data were processed

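Total hippocampal RNA was prepared after ribosomal RNA removal, per the labels, from 12 libraries in 4 groups of 3. The tools named in the submitters' processing notes are HISAT2 2.0.4 and StringTie, with the build GRCm38.p6. The deposited tables give FPKM and coverage signal for 137862 transcripts; the use of strand was not given in the sources used here, so overlapping and antisense genes are uncertain. There are no read counts, so depth was taken from FPKM divided by coverage, and no counting interval is given. FPKM was summed per gene with pandas 2.3.3, the median over receptor genes of the library was subtracted (floored at 0), and libraries were scaled by median of ratios over protein-coding genes averaging 5 FPKM or more. limma 3.58.1 (R 4.3.3, trend and robust) fitted log2(FPKM + 0.5) with 4 group means over 12 libraries, with two-sided tests and adjustment (Benjamini-Hochberg) over 15969 genes at 0.05. In the comparison of females on data simulated with the means and spread of the male libraries, 69.7% of genes changed by 1 log2 unit were recovered. The changed genes were drawn above a minimum level. The spread of the female libraries was not simulated, so this share cannot be carried over to them. The members, lists and rules were chosen with earlier results of these data known. Named genes were the members and Atrx, neighbours of Resp18, the 6 highest and 3 lowest correlations, and 3 genes of smallest p for the mean per pathway list plus those passing. Alternatives were scaling, subtraction, pseudocount, filter, exon-union values, left-out libraries and a replicate block.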

Additional observations from a re-analysis of the deposited data

How the results depend on the processing

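The count of members that passed was 0 in females, 0 in males, 0 for the mean and 0 for the difference between the sexes. It moved to 1 in females on deposited FPKM (Cpe), and for the mean it ran from 0 to 1 over the fits that left out 1 library. For control males against control females it was 3, and it was 0 with no background subtraction, 0 on deposited FPKM, 1 with no filter on low values, 6 with exon-union values, 6 without cKO females 2 and 3, 7 with only the groups compared, and 1 to 7 over the fits that left out 1 library. The direction of Resp18 was lower in cKO in each sex under each of the 23 alternatives run, from −1.28 to −0.21 in females and from −1.39 to −1.02 in males over the fits that left out 1 library. With no background subtraction it was −1.46 in females and −1.46 in males. Resp18 was chosen for its fall in these same libraries, so the shared direction is a description and no support.

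Other members changed sign under some alternatives, at values that had not passed the test except for Pcsk2 and Chga between the control sexes. For cKO against control females, exon-union values gave 0.27 for Pcsk1, 0.038 for Pcsk1n, 0.045 for Pcsk2, 0.081 for Chgb, 0.14 for Scg2, 0.053 for Scg3 and 0.14 for Scg5. Without cKO females 2 and 3 the values were 0.018 for Pcsk1n, 0.0013 for Pcsk2, −0.080 for Chga, 0.21 for Chgb, 0.029 for Scg3 and 0.075 for Scg5. Quantile normalization gave 0.10 for Chgb, 0.059 for Scg2 and 0.062 for Scg5. Chga was −0.95 with no subtraction, −0.23 on deposited FPKM, −0.025 with upper quartile scaling and −0.0079 with only the groups compared. Over the fits that left out 1 library, Pcsk1 ran from −0.18 to 0.18, Chga from −0.058 to 0.052, Chgb from −0.27 to 0.10, Scg2 from −0.081 to 0.0037 and Scg5 from −0.11 to 0.026. In males, Pcsk1 was 0.024 with exon-union values, Cpe 0.11 with quantile normalization, and Chgb and Scg5 −0.15 and −0.21 with no subtraction; left-out libraries took Chgb from −0.0047 to 0.17 and Scg5 from −0.055 to 0.13. Between the control sexes, no subtraction gave 0.42 for Pcsk1, 0.0027 for Pcsk2, 0.010 for Chga and 0.26 for Scg2, and quantile normalization gave −0.0092 for Cpe. Left-out libraries took Resp18 from −0.31 to 0.76 and Pcsk1 from −0.21 to 0.10 there. The causes were not tested.

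Same-numbered control and cKO libraries had correlations of their deviations of 0.12, −0.26 and 0.32 in females and 0.05, −0.09 and 0.21 in males. Those of differently numbered libraries ran from −0.45 to 0.42 in females and from −0.27 to 0.18 in males. With 3 libraries per group, these values cannot decide whether the numbers pair the libraries. With the replicate block Resp18 was −0.70 in females and −1.23 in males, and 0 members passed in females, 0 in males, 0 for the mean and 0 for the difference. The comparison of the control sexes could not be fitted with the block. The lowest depth, 1.16 Gb, and the highest backgrounds fell in cKO females 2 and 3, which limits what can be said of low members in that group.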
